A study of Homo sapiens with 24 samples.

Results

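The genes examined here are 5 genes of the 9p21 region of chromosome 9, CDKN2A, CDKN2B, CDKN2B-AS1, MTAP and DMRTA1. They were listed by name, because the region is deleted in A549, out of the 60641 gene symbols that all libraries share, and all 5 were present in the files. The samples were 24 RNA-seq libraries in 8 groups of 3. A549 is a lung adenocarcinoma cell line and HCT116 a colorectal carcinoma cell line. In the knockouts (KO), CRISPR/Cas9 had removed the sequence encoding the DNA-binding domain of a noncoding transcript. Both lines had a wild type (WT B), a KO of MSTRG.2513.6 and one of MSTRG.4401.1. HCT116 had in addition a KO of MSTRG.34636.7 and another wild type, WT A, and in these 2 groups the libraries are numbered 1A to 3A. Each KO was set against WT B of its cell line, except MSTRG.34636.7 KO, which was set against WT A. No drug or other agent is given for any group, the labels do not say whether a KO line is 1 clone, and they do not say that the libraries of a group come from separate cultures, so p-values measure the spread between libraries only. The 3 transcripts are not listed under these names in the gene tables, so the KOs themselves could not be checked.

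CDKN2A encodes 2 proteins from different first exons. p16INK4a binds CDK4 and CDK6 and keeps RB active, and p14ARF binds and inhibits the ubiquitin ligase MDM2. The neighbouring CDKN2B encodes p15INK4b, a related CDK4 and CDK6 inhibitor, and CDKN2B-AS1 (ANRIL) is a long noncoding RNA transcribed from the opposite strand, with a reported role in Polycomb silencing of both inhibitors. MTAP encodes the phosphorylase that recycles methylthioadenosine, a by-product of polyamine synthesis that inhibits the methyltransferase PRMT5 when it accumulates. DMRTA1 encodes a DM-domain transcription factor. Homozygous deletions of 9p21 are frequent in carcinomas and often take MTAP along with the 2 inhibitors.

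The order of the genes along the short arm frames every value that follows. On GRCh38, as annotated by GENCODE, MTAP covers chr9:21802636-21937651 on the plus strand, CDKN2A chr9:21967752-21995301 on the minus strand, CDKN2B-AS1 chr9:21994139-22128103 on the plus strand, CDKN2B chr9:22002903-22009305 on the minus strand and DMRTA1 chr9:22446824-22455740 on the plus strand. The ends of CDKN2A and CDKN2B-AS1 overlap by 1163 bp, of which 593 bp are exonic in both genes. CDKN2B lies whole within an intron of CDKN2B-AS1, with 0 bp of shared exon. The library kit keeps the strand, but whether the counting used it is not given in the sources used here, so reads from the 593 bp may have been counted for either gene. GENCODE also lists a long noncoding RNA, ENSG00000264545, that starts with MTAP and ends inside CDKN2B-AS1, and shares 460 bp of exon with the first and 162 bp with the second.

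The 250 bases before 5 transcription starts are printed here, because gene counts merge the 2 starts of CDKN2A, and because CDKN2B-AS1 starts beside the p14ARF start of CDKN2A yet showed the opposite pattern between the cell lines. All are read 5′ to 3′ on the gene's own strand from the RefSeq promoter table (GRCh38.p14). The CDKN2B-AS1 window lies before the RefSeq start but inside the GENCODE spans of CDKN2B-AS1 and CDKN2A given above. Capitals mark each GGGCGG or its reverse complement CCGCCC, the core of the GC box bound by Sp1-type factors.
MTAP (plus strand, chr9:21802386-21802635): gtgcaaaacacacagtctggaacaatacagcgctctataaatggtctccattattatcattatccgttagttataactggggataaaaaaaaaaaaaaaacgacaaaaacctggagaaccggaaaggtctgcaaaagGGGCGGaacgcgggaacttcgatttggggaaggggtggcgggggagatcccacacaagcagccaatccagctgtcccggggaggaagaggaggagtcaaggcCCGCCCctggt
CDKN2A, p14ARF start (minus strand, chr9:21995325-21995574): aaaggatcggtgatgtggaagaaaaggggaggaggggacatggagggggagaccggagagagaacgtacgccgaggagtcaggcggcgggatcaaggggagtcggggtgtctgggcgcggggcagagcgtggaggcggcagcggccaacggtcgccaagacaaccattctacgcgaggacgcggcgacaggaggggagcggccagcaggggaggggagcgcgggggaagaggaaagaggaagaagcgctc
CDKN2A, p16INK4a start (minus strand, chr9:21974858-21975107): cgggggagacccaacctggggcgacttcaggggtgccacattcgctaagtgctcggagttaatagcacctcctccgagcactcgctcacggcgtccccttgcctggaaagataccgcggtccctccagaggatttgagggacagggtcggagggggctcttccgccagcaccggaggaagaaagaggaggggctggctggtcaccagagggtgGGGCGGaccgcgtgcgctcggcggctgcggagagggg
CDKN2B (minus strand, chr9:22009306-22009555): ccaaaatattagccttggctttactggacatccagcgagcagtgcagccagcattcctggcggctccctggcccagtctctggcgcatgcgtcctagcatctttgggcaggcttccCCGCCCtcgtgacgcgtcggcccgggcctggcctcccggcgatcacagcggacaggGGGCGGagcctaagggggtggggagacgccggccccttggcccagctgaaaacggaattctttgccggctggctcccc
CDKN2B-AS1 (plus strand, chr9:21994541-21994790): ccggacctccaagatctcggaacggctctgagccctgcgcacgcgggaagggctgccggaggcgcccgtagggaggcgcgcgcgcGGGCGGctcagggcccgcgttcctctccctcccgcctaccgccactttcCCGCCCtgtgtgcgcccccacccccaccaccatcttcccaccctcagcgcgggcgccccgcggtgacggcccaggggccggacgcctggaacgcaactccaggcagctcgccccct
The window of the p14ARF start held 0 GC boxes, that of the p16INK4a start 1, and those of MTAP, CDKN2B and CDKN2B-AS1 2 each. Such a hexamer occurred in 42.6% of the 35116 promoters of the table, in windows of the same length. The CDKN2B-AS1 window held 31 CpG dinucleotides, the p14ARF window 24, the p16INK4a window 20, the CDKN2B window 18 and the MTAP window 11, against a median of 11 over all promoters. These are descriptions of the letters only.

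The libraries held 25799359 to 102261808 counts in total, so that 3 counts, taken here as the floor of detection, corresponded to 0.0293 to 0.116 CPM, the count per 1000000 counts of the library. The floors and the intervals below cover counting error only, since without molecular identifiers a read is not an independent molecule. The libraries S8 and S9 of HCT116 MSTRG.2513.6 KO stood apart from their label. Their log2(CPM + 1) over all genes correlated with the 9 A549 libraries at r = 0.971 to 0.995 and with the 12 libraries of the other HCT116 groups at r = 0.916 to 0.927, whereas the remaining library of the group, S11, correlated with those 12 at r = 0.972 to 0.987. The summed level of 5 lung markers was 1911 CPM in S8 and 1779 CPM in S9, 1074 to 2444 CPM in A549 and 9.15 to 86.0 CPM in the other 13 HCT116 libraries, and in A549, S8 and S9 nearly all of it was the keratin gene KRT7. The lung factor NKX2-1 ran the other way, with 0 to 13 counts in the A549 libraries, 0 to 4 in S8 and S9, and 61 to 188 in the 13 HCT116 libraries. Of 5 colon markers CDX2 reached 13.9 to 23.6 CPM in the 13 HCT116 libraries, and it was the one marker of the list with a median of at least 1 CPM there. CDX2 was at 0 to 1.20 CPM in A549 and 0.406 to 0.636 CPM in S8 and S9, whereas the colon marker CDH17 was higher in A549 (5.21 to 16.3 CPM) and in S8 and S9 (5.21 to 7.40 CPM) than in the 13 HCT116 libraries (0.116 to 1.76 CPM), and LGALS4 had a higher median in A549 (0.579 against 0.0752 CPM). Over 5 colon markers the sum was 16.1 to 25.7 CPM in these libraries, 7.04 to 22.4 CPM in A549 and 7.12 to 9.19 CPM in S8 and S9. Over 4 epithelial markers it was 1544 to 8440 CPM in all libraries, most of it the keratin genes KRT8 and KRT18. EPCAM was far lower in A549 (1.26 to 3.95 CPM) and in S8 and S9 (0.890 to 1.31 CPM) than in the 13 HCT116 libraries (111 to 247 CPM). KRT18 was higher in A549 (1166 to 4157 against 284 to 1139 CPM), and the ranges of KRT8 and CDH1 overlapped. Over 3 markers of blood, stroma and endothelium the sum was 7.72 to 74.2 CPM, nearly all of it the stromal gene COL1A1 (7.65 to 73.3 CPM), with the blood marker PTPRC at 0 to 9 counts. Values of the HCT116 MSTRG.2513.6 KO group are therefore given library by library, and all statements on HCT116 as a line rest on the other 13 libraries unless S8 and S9 are named.

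The 2 cell lines divided the 5 genes into 3 patterns. CDKN2A and CDKN2B were present in HCT116 and at 0 in every A549 library, MTAP was present in both lines and higher in HCT116, and CDKN2B-AS1 and DMRTA1 were higher in A549. The genes were listed because of the A549 deletion, so their differences between the lines are given as a description without a test. In bulk RNA, fewer cells with a transcript and less of it per cell cannot be told apart.

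CDKN2A had 0 counts in each of the 9 A549 libraries, over 413024517 counts together, which allows at most 0.0470 to 0.116 CPM per library. In HCT116 WT B it had 2460, 2716 and 2223 counts (46.9, 42.3 and 37.0 CPM), and in WT A 2479, 2670 and 6090 counts (46.6, 54.4 and 59.6 CPM). MSTRG.4401.1 KO gave 49.8, 42.7 and 56.2 CPM and MSTRG.34636.7 KO 45.5, 39.8 and 38.8 CPM. The 13 HCT116 libraries thus lay in 1 narrow band, from 37.0 to 59.6 CPM, with none near the A549 floor. Against 3 counts per library in A549 WT B, the HCT116 WT B mean of 42.1 ± 4.97 CPM (SD, n = 3) was at least 727-fold higher. The group means fell in the order WT A (53.5 ± 6.52 CPM), MSTRG.4401.1 KO (49.6 ± 6.73), WT B (42.1 ± 4.97) and MSTRG.34636.7 KO (41.4 ± 3.63), and each group's range overlapped that of its neighbour in the order.

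CDKN2B, at lower levels, showed the same division. It had 0 counts in all 9 A549 libraries. HCT116 WT B had 326, 382 and 475 counts (6.22, 5.95 and 7.90 CPM) and WT A 578, 618 and 882 counts (10.9, 12.6 and 8.62 CPM), so that the ranges of the 2 wild types did not overlap. MSTRG.4401.1 KO gave 6.26, 7.85 and 6.67 CPM and MSTRG.34636.7 KO 8.68, 9.32 and 10.1 CPM. The WT B mean was at least 115.6-fold higher than the A549 floor. The order of the means was WT A (10.7 ± 1.99 CPM), MSTRG.34636.7 KO (9.38 ± 0.729), MSTRG.4401.1 KO (6.93 ± 0.828) and WT B (6.69 ± 1.06). Between MSTRG.34636.7 KO and MSTRG.4401.1 KO the ranges did not overlap, and S11, at 12.1 CPM, lay above both and within the range of WT A. Per kilobase of merged GENCODE exon, the scale on which genes can be compared, CDKN2A stood at 10.8 ± 1.28 and CDKN2B at 1.67 ± 0.264 CPM per kb in HCT116 WT B.

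MTAP was not at 0 in A549. Its counts in A549 WT B were 970, 1123 and 922 (16.5, 18.9 and 22.2 CPM), in MSTRG.2513.6 KO 1149, 1002 and 1167 (17.98, 17.5 and 24.97 CPM) and in MSTRG.4401.1 KO 725, 654 and 552 (21.8, 25.3 and 21.04 CPM). In HCT116 WT B it had 18947, 22708 and 21633 counts (361, 354 and 360 CPM). The WT B means were 19.2 ± 2.87 CPM in A549 and 358 ± 3.95 CPM in HCT116, an 18.7-fold difference, and the ranges of the 2 lines did not overlap in any group without S8 and S9. Within HCT116, WT A lay lower, at 217, 226 and 232 CPM, and MSTRG.34636.7 KO spread from 204 to 334 CPM, while MSTRG.4401.1 KO lay at 349, 339 and 367 CPM. Against WT A the difference between the lines was 11.7-fold. Which part of MTAP the A549 counts come from cannot be read from gene counts. Per kilobase of exon MTAP was at 24.7 ± 0.272 in HCT116 WT B and 1.32 ± 0.197 CPM per kb in A549 WT B.

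CDKN2B-AS1 ran the other way, although its span holds CDKN2B and reaches into CDKN2A. A549 WT B had 19368, 25092 and 20273 counts (329, 422 and 488 CPM), MSTRG.2513.6 KO 334, 333 and 403 CPM, and MSTRG.4401.1 KO 518, 562 and 428 CPM. HCT116 WT B had 818, 1002 and 1308 counts (15.6, 15.6 and 21.8 CPM) and WT A 15.1, 22.9 and 21.8 CPM. The wild-type means of 413 ± 79.8 CPM in A549 and 17.7 ± 3.55 CPM in HCT116 WT B differed 23.4-fold. Which part of CDKN2B-AS1 the A549 counts come from cannot be read from gene counts. The pseudogene UBA52P6, which lies in exon of CDKN2B-AS1, had 0 or 1 count in A549 and 5 to 41 in the 13 HCT116 libraries. The 9 A549 libraries lay between 329 and 562 CPM and the 13 HCT116 libraries between 9.85 and 22.9 CPM. Per kilobase of exon it was at 20.2 ± 3.91 in A549 WT B and 0.865 ± 0.174 CPM per kb in HCT116 WT B, so that of the 5 genes it was the highest in A549 WT B, and in HCT116 WT B higher than DMRTA1 alone. The HCT116 group means ran from 14.5 ± 2.26 CPM in MSTRG.34636.7 KO (13.03 to 17.1 CPM) to 19.98 ± 1.31 CPM in MSTRG.4401.1 KO (18.5 to 20.99 CPM), whose ranges did not overlap and whose libraries are numbered differently, while both wild types overlapped each of these KOs. S11, at 9.85 CPM, lay below all of them.

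DMRTA1 was low in both lines and higher in A549. It had 202, 298 and 216 counts in A549 WT B (3.43, 5.01 and 5.20 CPM), 4.32, 4.65 and 4.99 CPM in MSTRG.2513.6 KO, and 9.49, 9.61 and 7.89 CPM in MSTRG.4401.1 KO. In HCT116 WT B it had 14, 8 and 6 counts, in WT A 31, 22 and 10 counts, in MSTRG.34636.7 KO 36, 7 and 34 counts, and in MSTRG.4401.1 KO 0 counts in all 3 libraries. The wild-type means of 4.55 ± 0.970 and 0.164 ± 0.0902 CPM differed 27.8-fold, or 12.1-fold against HCT116 WT A.

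**Figure D1:**
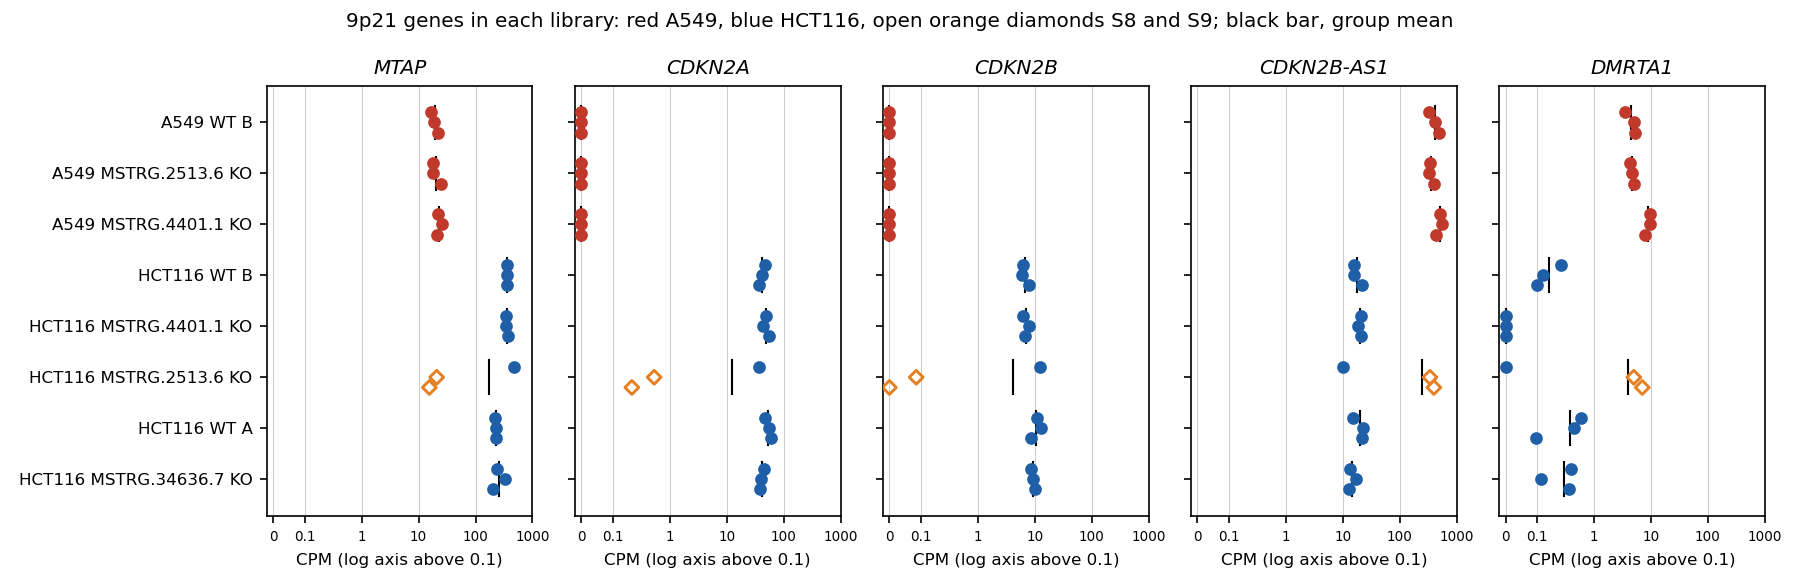
Level of each 9p21 gene in every library, in CPM on an axis that is logarithmic above 0.1 CPM and linear below; points are libraries (red A549, blue HCT116, open orange diamonds S8 and S9) and black bars group means (n = 3). CDKN2A and CDKN2B sit at 0 in the 9 A549 libraries, CDKN2B-AS1 and DMRTA1 lie higher in A549, and S8 and S9 lie next to A549 in all 5 panels.

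S8 and S9 had the A549 pattern at each of the 5 genes, and S11 the HCT116 pattern. CDKN2A had 1348 counts in S11 (37.1 CPM), 25 in S8 and 9 in S9. The exact Poisson 95% intervals of the latter, 0.343 to 0.782 CPM for S8 and 0.0983 to 0.408 CPM for S9, lay far below the HCT116 band. CDKN2B had 440, 4 and 0 counts in S11, S8 and S9, and MTAP 480, 20.7 and 15.4 CPM. CDKN2B-AS1 reached 9.85 CPM in S11 but 339 and 398 CPM in S8 and S9, and DMRTA1 0 counts against 236 and 295. A set of 10 genes, CDKN2A among them, was at 0 in all 9 A549 libraries and at 10 CPM or more in each of the 12 libraries of the other HCT116 groups. Of these 10, S8 had 7 at 0 and S9 had 8 at 0, and CDKN2A was the highest of them relative to HCT116 WT B, at 1.26% in S8 and 0.511% in S9. In S11 the 10 genes stood at 40.3% to 325% of HCT116 WT B. Where the low CDKN2A counts of S8 and S9 come from was not tested.

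The map of the region shows how far each pattern reached. Within the spans of MTAP and CDKN2B-AS1, or between them, 4 smaller genes were counted, 3 of them looked up after the values of the region had been seen. ERVFRD-3, a pseudogene inside MTAP that shares 684 bp of exon with it, had 0 counts in all 9 A549 libraries and in S8 and S9, and 1.52 CPM on average in HCT116 WT B, at least 26.3-fold higher. CDKN2A-DT, a lncRNA adjoining CDKN2A, was also at 0 in those 11 libraries and at 5 to 74 counts in the other 13. UBA52P6, a pseudogene whose 382 bp lie in exon of CDKN2B-AS1, had 0 or 1 count in A549 and 5 to 41 in HCT116. TUBB8P1, a pseudogene in an intron of MTAP, had 60 to 169 counts in A549. It had 0 or 1 count in the 6 HCT116 libraries numbered 1A to 3A, against 14.1 to 23.7 CPM in the 7 HCT116 libraries with S numbers, so counts of this pseudogene differed between the 2 library sets of the same cell line.

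The nearest genes outside with at least 1 CPM in HCT116 WT B were present in the WT B libraries of both lines. On the side of MTAP, the lncRNA MIR31HG (chr9:21380073-21559891) was at 24.7 ± 3.43 CPM in A549 and 22.9 ± 1.02 CPM in HCT116 (WT B of both), and KLHL9 (chr9:21329665-21335404), a ubiquitin ligase adaptor, at 52.8 ± 37.3 and 23.9 ± 27.9 CPM. On the far side of DMRTA1, the apoptosis regulator CAAP1 (chr9:26840685-26892803) was at 17.2 ± 2.59 and 19.8 ± 1.57 CPM, and PLAA (chr9:26903372-26947242), a ubiquitin-binding protein, at 61.5 ± 2.08 and 70.2 ± 2.42 CPM. None of these 4 was called between the WT B groups (edgeR quasi-likelihood test, Benjamini-Hochberg adjusted p of 0.0107, 0.244, 0.730 and 0.373 in this order, the first at a log2(fold change) of 0.36). HCT116 WT A differed from WT B here, with MIR31HG at 1.87 ± 2.56 CPM, down to 0 counts in 1 library, and CAAP1 at 5.37 ± 1.06 CPM. Against WT A, MIR31HG (4.02, SE 1.23, adjusted p = 0.0270) and CAAP1 (1.87, SE 0.224, adjusted p = 0.000263) were called higher in A549, and KLHL9 (0.48) and PLAA (0.16) were not (edgeR). Over the 13 HCT116 libraries MIR31HG ranged from 0 to 56.6 CPM. A gene was called at an adjusted p below 0.1 and a log2(fold change) beyond 1 in either direction.

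Of the 32 listed neighbours, 23 could be tested between A549 WT B and HCT116 WT B. Of these, 9 were called higher and 2 lower in A549, with a median log2(fold change) of 0.73, where 35.7% of all 27882 genes tested were called and their median was -0.02. The tumour suppressor candidate TUSC1 was at 0 in all 13 HCT116 libraries and at 7.06 ± 0.848 CPM in A549 WT B, at least 137.6-fold higher there, and at 563 and 706 counts in S9 and S8. Also higher in A549 were the interferons IFNA1 (log2(fold change) 5.21, SE 0.827, adjusted p = 0.00118) and IFNE (3.75, SE 0.395, adjusted p = 0.000135), by edgeR's quasi-likelihood test. IFNA1 had 14 to 32 counts in A549 WT B and 0 to 2 in HCT116 WT B, under the floor of 3 counts. The size of its change therefore depends on the prior count of the fit. Against HCT116 WT A the changes were 3.21 for IFNA1 and 3.67 for IFNE. Lower in A549 were the ceramidase gene ACER2 (-1.08, SE 0.119, adjusted p = 0.000171, edgeR), named after its values were seen, and the endothelial receptor gene TEK, at 0 in A549 WT B against 0.263 CPM in HCT116 WT B, at least 4.54-fold higher in the latter. TEK was too low to be tested with HCT116 WT A (0.107 CPM) in place of WT B, and it reached 8 counts in an A549 MSTRG.4401.1 KO library. Apart from CDKN2A-DT, the neighbours with at most 3 counts in each A549 library were SLC24A2, IZUMO3, EQTN and LINGO2, of which IZUMO3, EQTN and LINGO2 averaged 0 CPM in HCT116 WT B as well and SLC24A2 0.191 CPM.

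**Figure D2:**
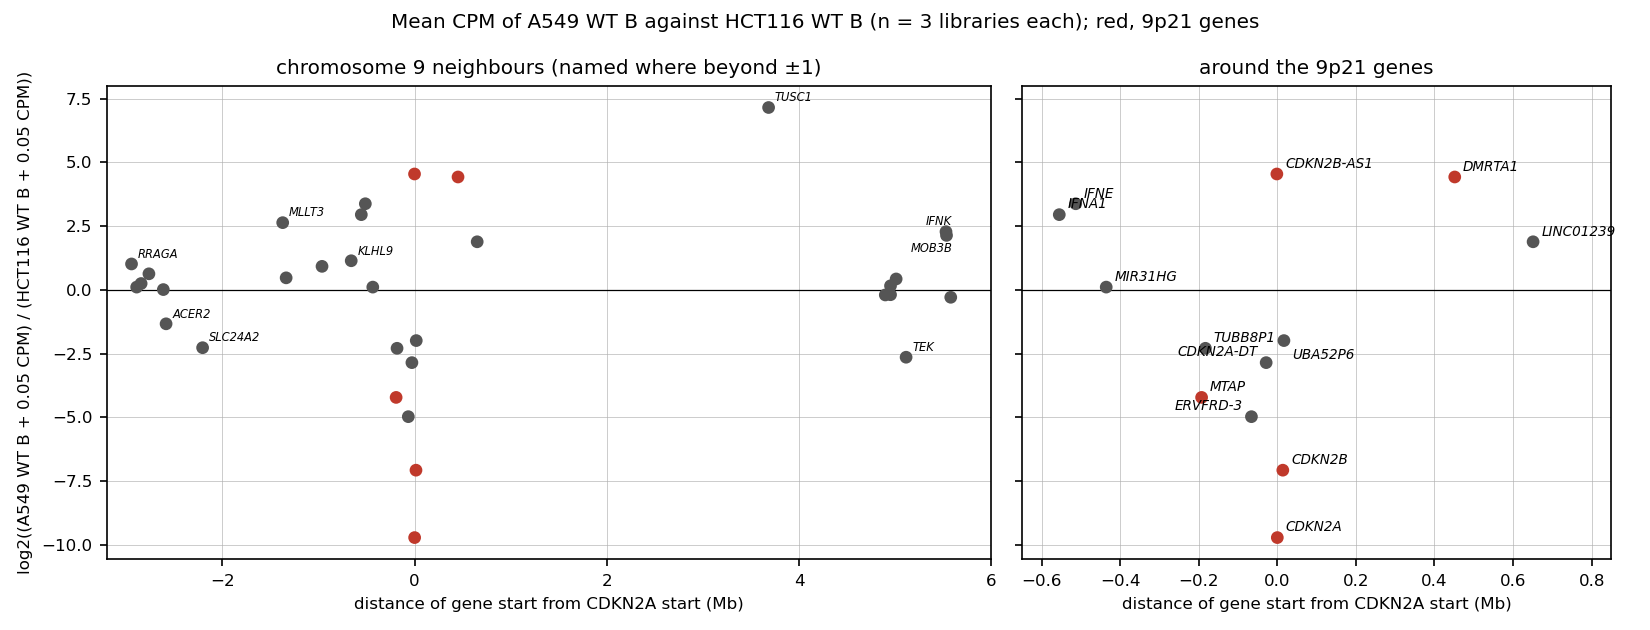
log2 ratio of mean CPM in A549 WT B to HCT116 WT B (0.05 CPM added to both, n = 3 libraries each) against the distance of each gene's start from that of CDKN2A in Mb, for genes with at least 0.1 CPM in one group; the right panel enlarges the region and red points are the 5 genes. Of the points in the right panel, those below 0 lie between MTAP and UBA52P6, with CDKN2B-AS1 and DMRTA1 above 0 in and beside the same interval and MIR31HG near 0.

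None of the 5 genes was called in any of the 5 KO comparisons or between the 2 HCT116 wild types by edgeR. DESeq2 called 2 of them in HCT116 MSTRG.2513.6 KO, against 2764 of all 26374 genes, and 0 elsewhere. At an unadjusted p below 0.05, edgeR gave 1 gene in A549 MSTRG.4401.1 KO, 2 each in HCT116 MSTRG.2513.6 KO, MSTRG.34636.7 KO and the wild types, and 0 in the remaining 2 comparisons. Over all genes, that p was reached by 11322 of 24979, 5456 of 26374, 4319 of 28816 and 6021 of 27280, in the same order. It was reached by 4300 of 25666 in A549 MSTRG.2513.6 KO and by 6836 of 26615 in HCT116 MSTRG.4401.1 KO. In A549, where CDKN2A and CDKN2B could not be tested, MSTRG.2513.6 KO gave log2(fold changes) of 0.07 (SE 0.157) for MTAP, -0.21 (SE 0.128) for CDKN2B-AS1 and 0.04 (SE 0.186) for DMRTA1, with adjusted p of 0.873, 0.478 and 0.946 by edgeR. Here 0 of 3 genes tested were called, against 2.92% of all 25666 genes. The KO and wild-type libraries overlapped for all 3.

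In A549 MSTRG.4401.1 KO again 0 of 3 were called, against 15.4% of 24979 genes. MTAP changed by 0.17 (SE 0.131, adjusted p = 0.335) and CDKN2B-AS1 by 0.21 (SE 0.142, adjusted p = 0.278) on the log2 scale (edgeR). DMRTA1 came nearest to a call, with 7.89 to 9.61 CPM in the KO and 3.43 to 5.20 CPM in WT B, without overlap, and a log2(fold change) of 0.91 (SE 0.192, edgeR adjusted p = 0.00902), just under the fold threshold. With upper-quartile normalization, which raised the median log2(fold change) of all genes in this comparison from 0.12 to 0.28, it was 1.08 and called. That fit called 4661 of all 24979 genes.

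In HCT116 MSTRG.4401.1 KO, 0 of 4 genes tested were called, against 2.62% of 26615 genes. Changes were small for all 4, at 0.22 (SE 0.112) for CDKN2A, 0.04 (SE 0.154) for CDKN2B, 0.17 (SE 0.139) for CDKN2B-AS1 and -0.04 (SE 0.0374) for MTAP on the log2 scale, with adjusted p of 0.265, 0.916, 0.524 and 0.565 (edgeR). DMRTA1, left out by the filter on low counts, had 0 counts in the 3 KO libraries and 14, 8 and 6 in WT B, which puts the WT B mean at least 2.58-fold above the KO floor. Set against WT A instead, MTAP was higher in this KO by 0.63 (adjusted p = 0.0106, edgeR) and CDKN2B lower by -0.63 (adjusted p = 0.0748), neither past the fold threshold.

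HCT116 MSTRG.34636.7 KO, compared with WT A, had 0 of 5 called against 1.34% of 28816 genes. The log2(fold changes) were -0.38 (SE 0.143) for CDKN2A, -0.18 (SE 0.183) for CDKN2B, -0.47 (SE 0.199) for CDKN2B-AS1, 0.19 (SE 0.180) for MTAP and -0.30 (SE 0.706) for DMRTA1, and the smallest adjusted p was 0.270, for CDKN2A (edgeR). CDKN2A was lower in all 3 KO libraries (38.8 to 45.5 CPM) than in all WT A libraries (46.6 to 59.6 CPM), and the share of all genes that separate so was not counted. Against WT B the signs of MTAP (-0.50) and CDKN2B (0.47) turned, each without a call.

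WT A and WT B, both labelled HCT116 wild type, differed in MTAP by -0.68 (SE 0.116, adjusted p = 0.00860) and in CDKN2B by 0.66 (SE 0.198, adjusted p = 0.0897) by edgeR, both short of the fold threshold. CDKN2A (0.34, adjusted p = 0.241), CDKN2B-AS1 (0.16, adjusted p = 0.712) and DMRTA1 (1.15, SE 0.729, adjusted p = 0.412) did not pass the adjusted p. Of the 5, 0 were called against 7.06% of 27280 genes. A difference in library set and a difference between the wild-type cultures cannot be told apart here.

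**Figure D3:**
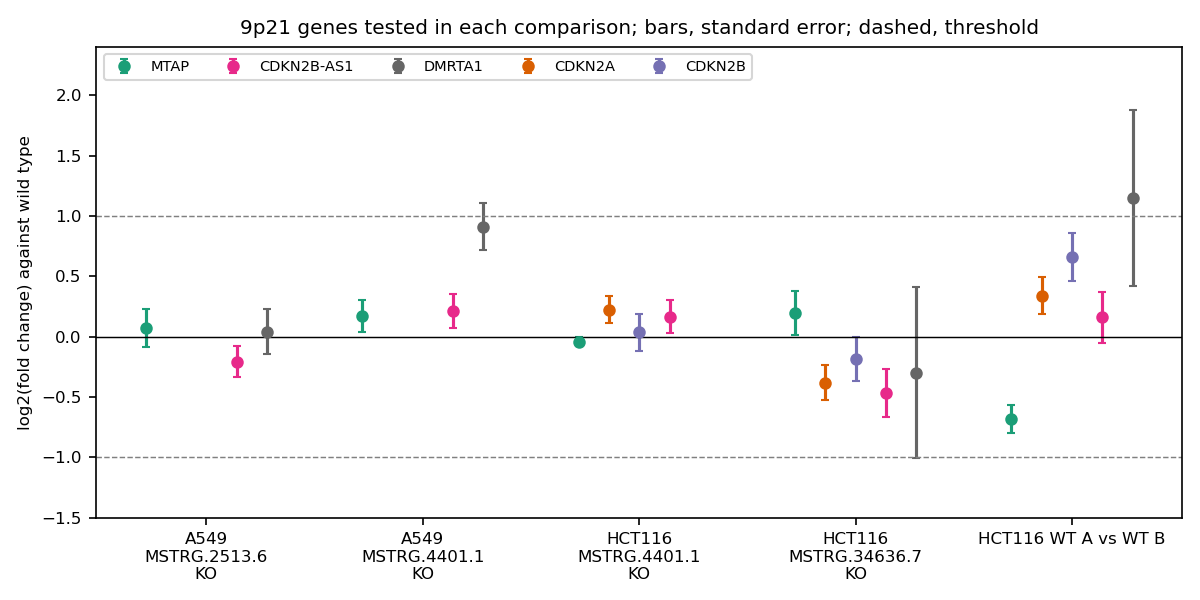
log2(fold change) of the 9p21 genes tested in 4 KO comparisons and between the 2 HCT116 wild types (points, edgeR estimates over 3 against 3 libraries; bars, SE; dashed lines, the fold threshold at -1 and 1). Nearly all points lie within 0.7 of 0, with DMRTA1 in A549 MSTRG.4401.1 KO at 0.91 and in WT A against WT B at 1.15.

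The HCT116 MSTRG.2513.6 KO comparison rested on which libraries it held. With all 3, 0 of 5 were called against 0.933% of 26374 genes, although the log2(fold changes) were large, from -1.81 (SE 1.64) for CDKN2A and -1.11 (SE 1.21) for MTAP to 4.15 (SE 1.30) for CDKN2B-AS1 and 4.94 (SE 1.83) for DMRTA1 (edgeR adjusted p of 0.165 to 0.835 over the 5 genes). Without S11 all 5 were called, at -6.47 for CDKN2A, -6.85 for CDKN2B, -3.99 for MTAP, 4.70 for CDKN2B-AS1 and 5.52 for DMRTA1, the same directions as between A549 and HCT116. That fit called 10636 of all 28577 genes tested. Without S8 and S9, the lone library S11 gave log2(fold changes) of 0.34 for MTAP, 0.77 for CDKN2B and -0.93 for CDKN2B-AS1 by edgeR. As 1 library has no spread of its own, a test would assume that S11 varies like WT B, and none is given. No single value for this KO in HCT116 cells can be given from these libraries.

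**Figure D4:**
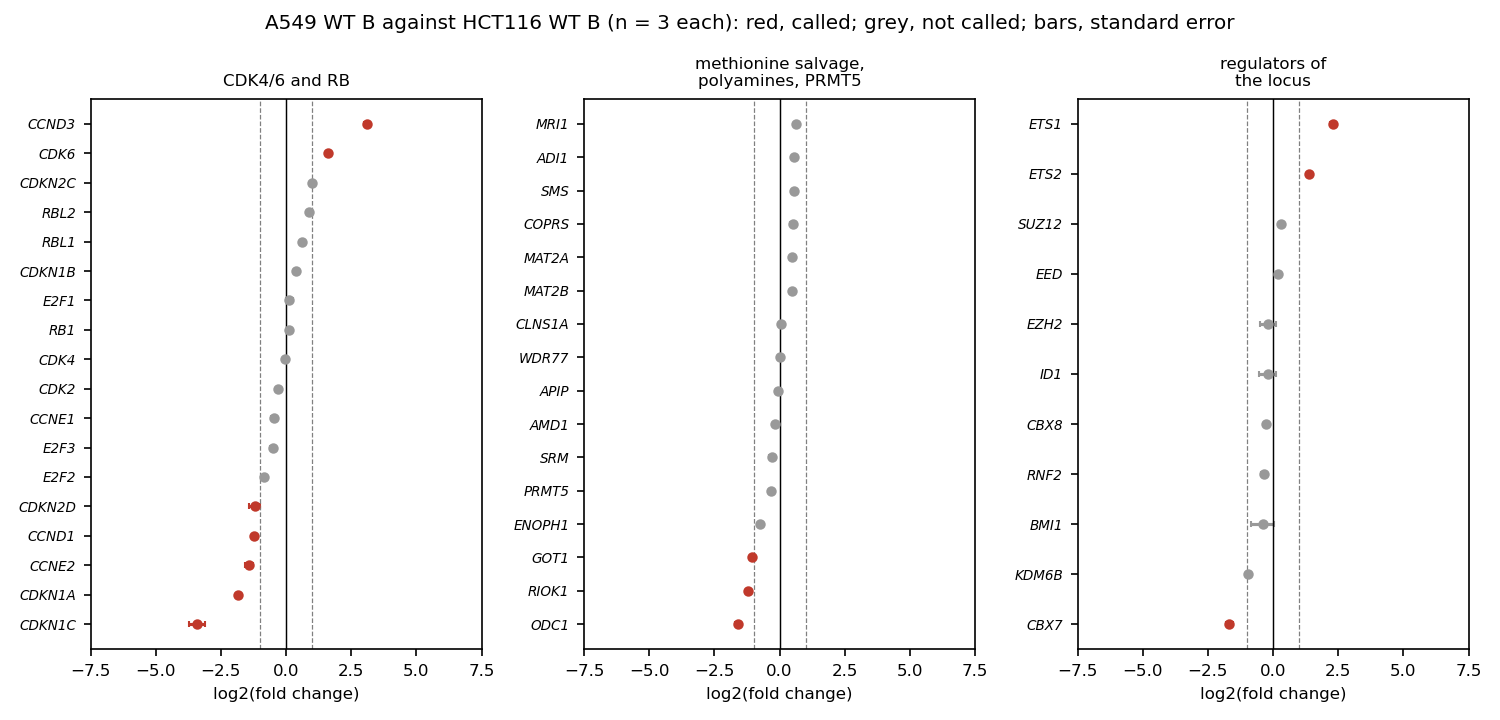
log2(fold change) of A549 WT B against HCT116 WT B for the genes of 3 lists (points, edgeR estimates; bars, SE; n = 3 each; red, called; grey, not called). Called genes lie on both sides of 0 in the CDK4/6 and RB and the regulator lists, and below 0 in the salvage and PRMT5 list.

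The pathways that the 9p21 products act on were compared between the same wild types, by lists of their known members. Of 18 tested genes of CDK4, CDK6 and RB control, 2 were higher and 5 lower in A549, 38.9% against 35.7% of all genes. CDK6, the partner kinase that p16INK4a and p15INK4b bind, was higher (299 ± 34.6 against 118 ± 8.55 CPM, log2(fold change) 1.60, SE 0.0818), as was cyclin D3, CCND3 (3.10, SE 0.0945). CDK4 (-0.06, SE 0.0642) and RB1 (0.11, SE 0.0608) were not called. Lower were CDKN1C, encoding the inhibitor p57 (-3.40, SE 0.308), and CDKN1A, encoding p21 (-1.83, SE 0.0528), while CCND1, cyclin D1, was lower by -1.22 (SE 0.0810). CDKN2C, encoding the relative p18INK4c, stood at 23.3 ± 1.02 against 14.1 ± 0.649 CPM, a log2(fold change) of 0.99 that just missed the fold threshold. A further relative, CDKN2D, named after its values were seen, was called lower in A549 (-1.20). With HCT116 WT A in place of WT B, CDKN2D was not called (-0.85).

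MDM2, the ligase that p14ARF binds, was at 199 ± 18.5 CPM in A549 and 444 ± 10.3 CPM in HCT116 (log2(fold change) -0.90, SE 0.0568), short of the fold threshold. Of 16 genes of methionine salvage, polyamine synthesis and PRMT5, 0 were higher and 3 lower (18.8% against 35.7%), namely ODC1, the first enzyme of polyamine synthesis (-1.61, SE 0.0986), the PRMT5 partner RIOK1 (-1.21, SE 0.0940) and GOT1 (-1.04, SE 0.0693). PRMT5 itself (-0.34, SE 0.0605) and MAT2A, which makes S-adenosylmethionine (0.48, SE 0.0509), were not called. Among 11 published regulators of the locus, ETS1 (2.29, SE 0.113) and ETS2 (1.39, SE 0.0931), activators of the p16INK4a start, were higher and the Polycomb gene CBX7 (-1.69, SE 0.133) was lower in A549. With WT A as the HCT116 side, ETS2 (0.87) and RIOK1 (-0.52) were no longer called, nor was GOT1 without A549 WT B replicate 3B (-0.99).

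In the KOs few listed genes were called. In A549 MSTRG.2513.6 KO, CDKN1A rose from 78.1 ± 7.39 to 161 ± 14.9 CPM (log2(fold change) 1.05, SE 0.109, adjusted p = 0.00279), and among the neighbours TUSC1 rose (1.00) and MLLT3 fell (-1.12), all by edgeR. These were 1 of 18 CDK and RB genes (5.56%) and 2 of 22 neighbours (9.09%), against 2.92% of all genes, with 0 of 16 salvage and 0 of 11 regulator genes (0 by DESeq2 as well, and 1 in each list at an unadjusted p below 0.05). Of all 25666 genes, 4300 reached that unadjusted p (edgeR). Without S18, CDKN1A (0.96) and TUSC1 (0.98) fell below the fold threshold, as TUSC1 did without WT B replicate 1B (0.97).

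In A549 MSTRG.4401.1 KO, TUSC1 fell from 7.06 ± 0.848 to 0.727 ± 0.372 CPM (-3.36, SE 0.342, adjusted p = 0.000473, edgeR) and MOB3B, a kinase activator gene, from 19.5 ± 2.38 to 3.86 ± 0.402 CPM (-2.42, SE 0.160). PLIN2, of lipid droplets, fell by 1.11 and LINC01239 rose by 1.59 on the log2 scale, 4 of 22 neighbours called in all (18.2%, near the 15.4% of all genes). Of the other lists, ODC1 (-1.16) and ETS1 (-1.19) fell, and ID1, a repressor of ETS-driven p16INK4a transcription, rose (1.44, SE 0.169). These were 1 of 16 salvage genes (6.25%) and 2 of 11 regulators (18.2%), where DESeq2 called 3 and 2. An unadjusted p below 0.05 was reached by 12 and 8 of them (edgeR). The median log2(fold change) was -0.61 for the salvage, -0.53 for the regulator and -0.36 for the CDK and RB genes, against 0.12 over all genes. None of 18 CDK and RB genes was called by edgeR or DESeq2, and CDK4, at -0.88 (SE 0.142), was short of the fold threshold. Of the 18, 9 had an unadjusted p below 0.05, as had 11322 of all 24979 genes (edgeR). ODC1 (-0.99) and PLIN2 (-0.94) were not called with upper-quartile normalization.

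In HCT116 MSTRG.4401.1 KO, CDK6 rose from 118 ± 8.55 to 242 ± 13.3 CPM (1.02, SE 0.0636, adjusted p = 0.000141) by edgeR, with 1 of 18 CDK and RB genes (5.56%, against 2.62% of all genes) and 0 of 21 neighbours called by edgeR or DESeq2 and 4 at an unadjusted p below 0.05. Of all 26615 genes, 6836 reached that unadjusted p (edgeR). CDK6 was below the fold threshold without WT B replicate 3B (0.97) and against WT A (0.69). In MSTRG.34636.7 KO, MOB3B, 1 of 22 neighbours (4.55%, against 1.34% of all genes), was the one listed gene called (-1.68, SE 0.264, edgeR adjusted p = 0.0384), and its call was lost without any 1 of the 3 KO libraries (adjusted p of 0.118 to 0.227). Between WT A and WT B, 4 listed genes were called, 1 of 21 neighbours, 1 of 18 CDK and RB genes and 2 of 11 regulators, against 7.06% of all genes, among them CAAP1 (-1.89, SE 0.205) and ID1 (2.35, SE 0.361). In HCT116 MSTRG.2513.6 KO, 6 were called with all 3 libraries (1 of 21 neighbours, 3 of 18 CDK and RB genes, 1 of 16 salvage genes and 1 of 11 regulators, against 0.933% of all genes), namely CDK6, CCNE2, E2F2, MLLT3, ODC1 and ETS1, and none of them kept its call without any 1 of S8, S9 and the WT B libraries (adjusted p of 0.305 to 0.425, edgeR). Without S11, where S8 and S9 alone make up the KO group, E2F2 fell below the fold threshold (-0.94) and the others stayed called. That fit called 10636 of all 28577 genes.

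Over the 12 libraries of HCT116 WT A, MSTRG.34636.7 KO, WT B and MSTRG.4401.1 KO, the genes most like CDKN2A, CDKN2B and MTAP were found among 18206 genes. Likeness was the Pearson r of log2(CPM + 1). For CDKN2A these were OSBP2 (r = 0.853), AC114781.1 (r = 0.837) and RPL6P12 (r = 0.830). For CDKN2B they were NUMB (r = 0.943), KAT6B (r = 0.942) and AL117379.1 (r = 0.936), and for MTAP VPS33B (r = 0.978), TNPO2 (r = 0.977) and AL080317.1 (r = 0.975). The Spearman rank correlation was 0.578 for AL080317.1, at 0 to 3.94 CPM, and 0.846 to 0.972 for the other genes named. The libraries share a cell line and form 2 numbered sets between which CDKN2B and MTAP shifted, so these values are descriptions.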

How the data were processed

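The 24 libraries were made from rRNA-depleted total RNA with a strand-keeping kit and sequenced on the NovaSeq platform. The submitters' processing notes name Trim Galore 0.6.6, FastQC 0.11.9, HISAT2 2.2.1 and hg38, and the study's methods add StringTie. The deposited values are whole-number counts per gene symbol, which the authors did not normalize or pool. The annotation release, the use of strand and the step to whole counts are not given in the sources used here. A further 3 symbols listed for the libraries 1A to 3A alone were left out.

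CPM values are counts relative to the library total. A separate fit was made for each comparison in edgeR 4.0.16 (limma 3.58.1, R 4.3.3) on the counts, with TMM normalization, filterByExpr, glmQLFit and glmQLFTest and Benjamini-Hochberg adjustment over all genes tested. A gene was called at adjusted p < 0.1 and |log2(fold change)| > 1. SEs were derived from the F statistic. The test was tested on simulated counts. Means over libraries at 0 counts were compared with a floor of 3 counts per library, which gives a lower bound. Within groups, 24 pairs of libraries all differed beyond sampling noise (chi-square per degree of freedom of at least 17.5). Positions came from GENCODE 44, and promoters from RefSeq.

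The 5 genes, the lists and the tests were chosen with earlier results of these data known. Named were all 5 genes, 9 defining pathway genes, up to 4 called genes per list and comparison by size of change, 2 neighbours on each side with at least 1 CPM, neighbours with at most 3 counts in every A549 library, and the 3 most alike genes of 3 members. A defining gene and its list are not reported here. Alternatives were no filter on low counts, at least 10 counts in every library, upper-quartile scaling, DESeq2 1.42.0, adjusted p < 0.05, no fold threshold, all libraries of a line in 1 fit, each library left out, the other HCT116 wild type, the replicate number as a block, S8 and S9 left out, and TMM-scaled CPM.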

Additional observations from a re-analysis of the deposited data

Results flagged for a closer look

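The effect of MSTRG.2513.6 KO on CDKN2B-AS1 differed between the cell lines by 4.30 on the log2 scale (HCT116 minus A549, edgeR interaction over 12 libraries, adjusted p = 0.0800), and the HCT116 side of it includes S8 and S9, at 339 and 398 CPM, and S11, at 9.85 CPM. The effect of MSTRG.4401.1 KO on DMRTA1 differed by -6.73 (edgeR adjusted p = 0.000741), with 14, 8 and 6 counts in HCT116 WT B against 0 in the KO, and 3.43 to 5.20 against 7.89 to 9.61 CPM in A549; as the HCT116 KO is at 0, the size depends on the prior count of the fit and is no bound. Both interactions were added after the data were seen.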

How the results depend on the processing

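Of 95 recomputed counts of called genes, 88 stayed within 1.5 times the reported count and 7 moved. From 0 called, A549 MSTRG.4401.1 KO went to 1 of the 9p21 genes (DMRTA1) with upper-quartile normalization and with no fold threshold, HCT116 MSTRG.4401.1 KO to 1 (DMRTA1, -6.14) with no filter, and HCT116 WT A against WT B to 2 (MTAP, CDKN2B) with no fold threshold. In the same order, these settings called 4661 and 10925 of all 24979 genes, 641 of 42203 and 3348 of 27280. HCT116 MSTRG.2513.6 KO went to 2 (CDKN2B-AS1, DMRTA1) with DESeq2 and with all HCT116 libraries in 1 fit, and ranged from 0 to 5 as each library was left out, the 5 coming without S11. Over all genes, 2764 of 26374 were called with DESeq2, 3487 of 30014 in the 1 fit and 10636 of 28577 without S11. The other 5 comparisons gave 0 with each library left out, and the 24 neighbours and pathway genes called between the lines became 25 to 26.

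Among 344 recomputed log2(fold changes) of the 9p21 genes, 19 changed sign, none of them called. With WT A as control of HCT116 MSTRG.4401.1 KO, these were MTAP (0.63), CDKN2A (-0.13), CDKN2B (-0.63) and CDKN2B-AS1 (-0.0058), and with WT B as control of MSTRG.34636.7 KO, MTAP (-0.50), CDKN2B (0.47) and DMRTA1 (0.85). Without S8 and S9 they were MTAP (0.34), CDKN2B (0.77), CDKN2B-AS1 (-0.93) and DMRTA1 (-6.14) in HCT116 MSTRG.2513.6 KO. With each library left out, MTAP ranged from -0.074 to 0.16 in A549 MSTRG.2513.6 KO and from -0.016 to 0.31 in MSTRG.34636.7 KO, DMRTA1 from -0.072 to 0.12 and from -0.77 to 0.21 in the same comparisons, and CDKN2B from -0.060 to 0.17 in HCT116 MSTRG.4401.1 KO. The cause was not tested.

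TMM scaling moved 4 of 40 group means beyond 1 SD, MTAP in HCT116 to 348 CPM (WT B), 216 CPM (WT A) and 334 CPM (MSTRG.4401.1 KO), and DMRTA1 to 5.16 in A549 MSTRG.2513.6 KO. Same-numbered libraries did not deviate together (r of 0.0114, 0.0179 and 0.0360 for MSTRG.34636.7 KO and WT A, and -0.0776, -0.0314 and -0.0135 for the 2 wild types WT B), so the numbers do not pair them. The replicate block left 0 of the 9p21 genes called for MSTRG.34636.7 KO and 25 neighbours and pathway genes between the lines. Counts of 0 to 36 for DMRTA1 in HCT116 limit what can be said of it.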
